A study of Homo sapiens with 3 samples.

Results

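The NSL (non-specific lethal) complex is a lysine acetyltransferase complex that holds WDR5, and 8 of its other genes, KANSL1, KANSL2, KANSL3, KAT8, MCRS1, PHF20, OGT and HCFC1, were followed in bladder cancer cells depleted of WDR5. The genes were chosen by name, and every probe set was taken whose only gene symbol in the platform annotation is one of the 8. This gave 23 of 49293 probe sets on the array. UM-UC-3, a human bladder cancer cell line, received either the control siRNA or one of the WDR5 siRNAs, named si-WDR5-2 and si-WDR5-3, each at 75 nM, and RNA was taken at 48 h. Each condition was measured on 1 Affymetrix PrimeView array, which reads a gene with 1 or several probe sets of short oligonucleotides. The control cells received a siRNA as well, so all 3 arrays hold transfected cells. There is no replicate array of any condition, so no error between cultures is known for any difference given here, and a change of RNA per cell cannot be told apart from a change in the make-up of the culture.

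In the NSL complex KAT8, also known as MOF, acetylates histone H4 at promoters of many housekeeping genes. KANSL1 is the scaffold that holds KAT8 and WDR5, and KANSL2 contacts WDR5 as well. WDR5 is at the same time a core subunit of the MLL/SET1 methyltransferase complexes, which place H3K4 methylation, and HCFC1 is shared by both kinds of complex. The comparison asks whether the mRNA of the complex partners differed when the mRNA of WDR5 was low.

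The siRNAs that separate the arrays are shown because all differences described here rest on them. Capitals mark the 19 bases before the overhang of 2 thymidines, which is in lower case, and the strands are written from 5′ to 3′.
control siRNA: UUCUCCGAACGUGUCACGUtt
si-WDR5-2: GCUCAGAGGAUAACCUUGUtt
si-WDR5-3: CCCAGUCCAACCUUAUUGUtt
In the capital letters, si-WDR5-2 and si-WDR5-3 shared no run longer than 6 bases, and neither had more than 3 in a row in common with the control strand. The labels place their target points at 999 and 585 of the WDR5 coding sequence.

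WDR5 itself was read by 2 probe sets, besides 1 that was not used because it is annotated to another gene as well. The first had an intensity of 1013 in control cells, 203.6 after si-WDR5-2 and 315 after si-WDR5-3, and the second had 947, 218 and 306. As the median of both, WDR5 mRNA was at 0.215 times the control after si-WDR5-2 and at 0.317 times after si-WDR5-3. Both arrays of WDR5 siRNA were thus well below the control array for the gene they target. The sample labels give lower WDR5 levels than the arrays, 0.06 for si-WDR5-2 and 0.14 for si-WDR5-3 relative to the control.

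The 8 partners stayed much closer to the control than WDR5 did. Gene values are the median log2 ratio over probe sets whose mean over the arrays was 152 or higher, which is where the median probe set lies. This filter kept 17 of the 23, and all 8 genes had at least 1. It does not mark expression, since 3 of 5 immune and endothelial markers, CD3E, PECAM1 and VWF, passed it too in a culture of cancer cells. No partner reached 1.5 times the control or fell to 0.667 times with either siRNA. For comparison, after si-WDR5-2 5% of the 11501 genes past the filter were at least 1.5 times the control and 3.35% were at most 0.667 times, and after si-WDR5-3 2.34% and 1.57% were. With both siRNAs 1.19% of genes were higher by this limit and 0.365% lower, and none of the 8 partners was. Because the background shares are this small, 0 of 8 does not set the partners apart from other genes. Their median log2 ratio was 0.18 after si-WDR5-2 and 0.01 after si-WDR5-3, against -0.02 and -0.00092 for all genes. Within 1.1 times the control level were 3 partners after si-WDR5-2 and 7 after si-WDR5-3. Of the 8, 7 lay further from the control after si-WDR5-2. The shares of all genes that did so were not computed, so these counts do not set the partners apart. All genes were spread more widely after si-WDR5-2 as well. The 5th and 95th percentiles of all genes were 0.716 and 1.5 times the control for si-WDR5-2 and 0.773 and 1.35 times for si-WDR5-3. All 8 partners were inside both ranges.

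**Figure D1:**
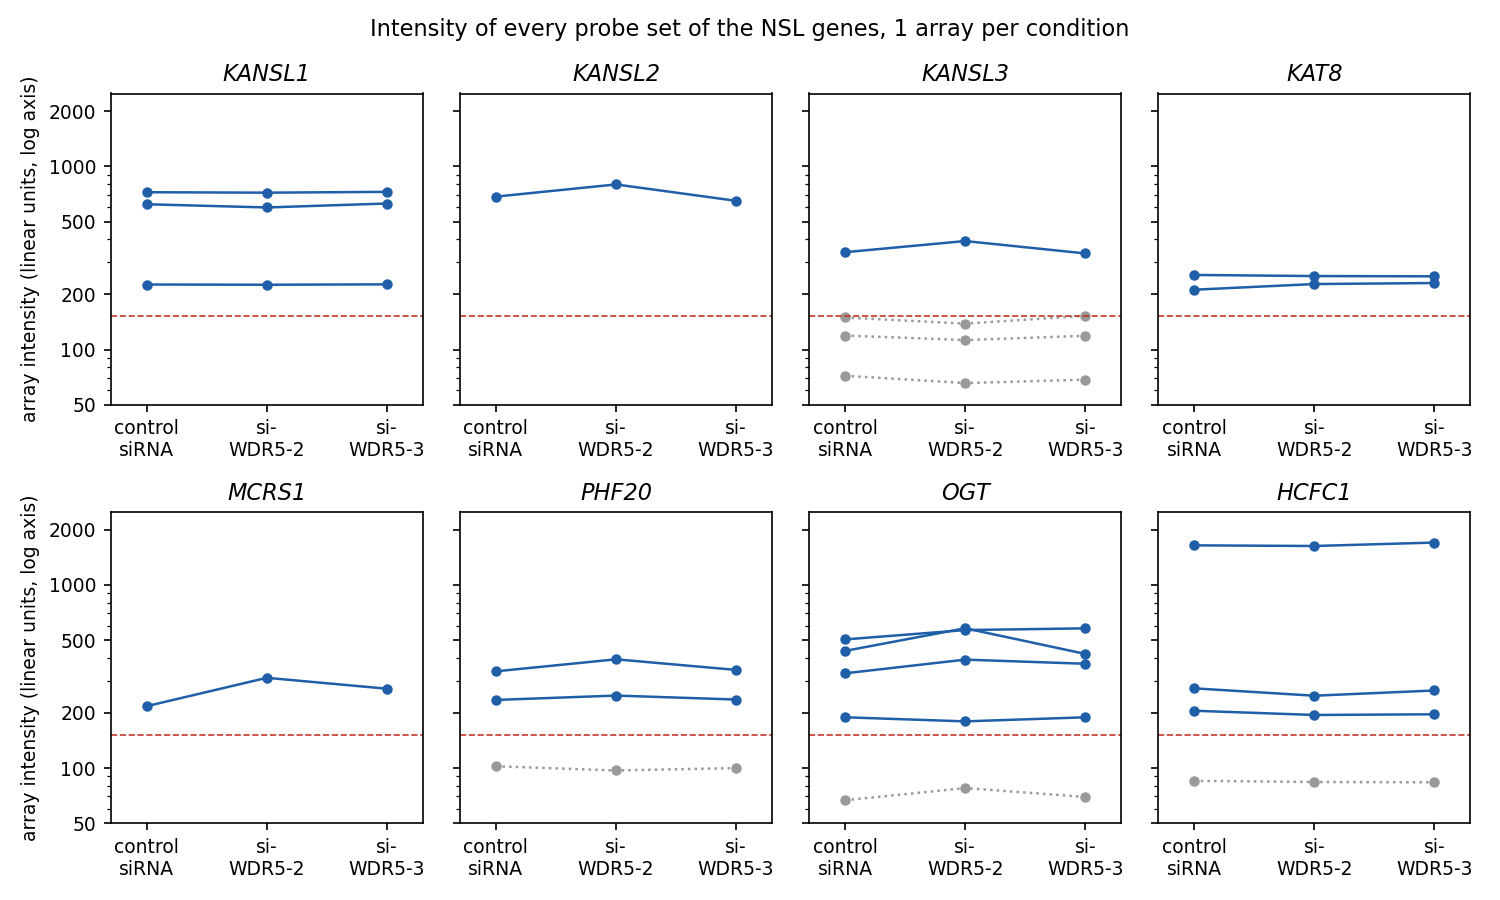
Array intensity (linear units on a log axis) of each of the 23 probe sets on the 3 arrays, 1 panel per gene and 1 line per probe set. Blue lines are the 17 probe sets past the filter, grey dotted lines the 6 dimmer ones, and the red dashed line is the filter at 152. MCRS1 and 1 probe set of OGT move most, from 218 to 311 and from 436 to 580 after si-WDR5-2, while the lines of KANSL1 are flat.

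KANSL1, the scaffold, had the smallest differences. Its brightest probe set had an intensity of 723 in control cells, 719 after si-WDR5-2 and 726 after si-WDR5-3. The next had 621, 597 and 627, and the third had 226, 226 and 227. The ratios of the 3 probe sets ran from 0.960 to 0.997 after si-WDR5-2 and from 1.00 to 1.01 after si-WDR5-3, so the array of si-WDR5-2 was the lowest in each and that of si-WDR5-3 the highest, by at most 1.05 times. The second of them carries the suffix that Affymetrix gives to probe sets shared by transcripts of several genes. The gene value was 0.994 times the control after si-WDR5-2 and 1.00 times after si-WDR5-3.

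KANSL2, which binds WDR5 on another face than KANSL1, rests on 1 probe set. Its intensity was 684 in control cells, 797 after si-WDR5-2 and 649 after si-WDR5-3. It was thus at 1.17 times the control after si-WDR5-2 and at 0.948 times after si-WDR5-3, with 1.23 times between the siRNAs. KANSL2 was the only partner whose values lay on opposite sides of the control by more than the spread typical of probe sets of one gene (median SD 0.08 on the log2 scale after si-WDR5-2 and 0.07 after si-WDR5-3). A further probe set, annotated to KANSL2 together with another gene, was not used.

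KANSL3, an NSL subunit that also binds microtubule ends in mitosis, had 4 probe sets, and 1 passed the filter. That one had an intensity of 340 in control cells, 391 after si-WDR5-2 and 335 after si-WDR5-3, or 1.15 and 0.985 times the control. The other 3 were dimmer, with 149.6, 119 and 71.9 in the control, and all lay below the control after si-WDR5-2, at 0.926, 0.945 and 0.912 times. With these included the value of KANSL3 after si-WDR5-2 was 0.935 times the control, so its direction depends on the filter. After si-WDR5-3 the dim probe sets were at 1.02, 0.997 and 0.952 times.

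KAT8, the acetyltransferase, was read by 2 probe sets that did not point the same way. The brighter had 255 in control cells, 252 after si-WDR5-2 and 251 after si-WDR5-3, and the other had 212, 228 and 231. The ratios were 0.986 and 0.983 for the first and 1.07 and 1.09 for the second, after si-WDR5-2 and si-WDR5-3 in that order. Their median put KAT8 at 1.03 times the control with either siRNA. With the brighter probe set alone it was on the other side of the control, at 0.986 and 0.983 times.

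MCRS1, a subunit with an FHA domain that also belongs to the INO80 remodelling complex, was the partner furthest from the control. Its single probe set had an intensity of 218 in control cells, 311 after si-WDR5-2 and 271 after si-WDR5-3. It was at 1.43 times the control after si-WDR5-2 and at 1.245 times after si-WDR5-3 (log2 ratios of 0.51 and 0.32). Both arrays of WDR5 siRNA were above the control array. Of all genes, 6.53% were at least as high as MCRS1 after si-WDR5-2 and 8.69% were after si-WDR5-3, so values this high were not rare on either array. At a looser limit, 25% above the control, MCRS1 was the one partner counted as higher after si-WDR5-2, and after si-WDR5-3, where its ratio was just under the limit, none was. The limit was met by 13.3% of all genes after si-WDR5-2 and by 8.39% after si-WDR5-3, and no partner was at most 0.8 times the control, as 9.14% and 6.71% of genes were. The gene rests on 1 probe set, so no other reading of MCRS1 could be set beside it. The intensity of this probe set was near that of the endothelial marker PECAM1 (274 to 287), a level that does not mark expression by itself. By distance between the pairs of log2 ratios, the genes nearest to MCRS1 were RBAK (distance 0.0028), HINT2 (0.0040) and FIS1 (0.0075), each on 1 probe set, and 135 genes lay within 0.1 of it. This likeness covers 2 ratios with a shared control array, and the nearest other partner, OGT, was at a distance of 0.38.

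**Figure D2:**
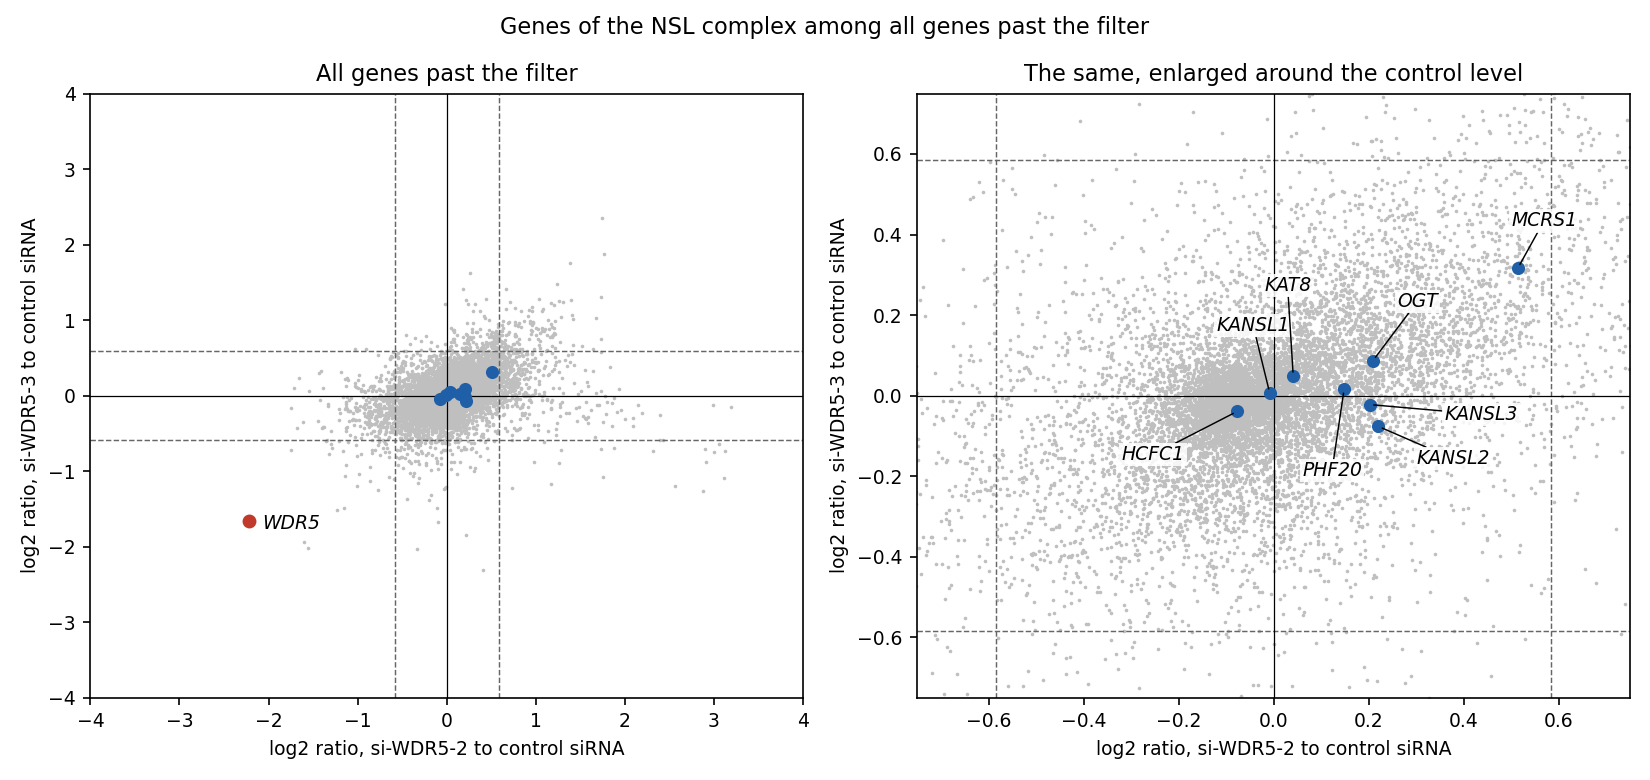
Log2 ratio to control siRNA after si-WDR5-2 (horizontal axis) and after si-WDR5-3 (vertical axis) for the 11501 genes past the filter (grey), the 8 NSL partners (blue) and WDR5 (red), with the centre enlarged on the right. Dashed lines mark 1.5 times in either direction. The 8 partners lie inside the dashed square, with MCRS1 nearest to its edge at 0.51 and 0.32, while WDR5 lies far outside at -2.22 and -1.66.

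PHF20, a Tudor domain protein that reads methylated lysine, had 3 probe sets. The brightest had an intensity of 337 in control cells, 392.3 after si-WDR5-2 and 343 after si-WDR5-3, and the second had 235, 249 and 237. Both were above the control with either siRNA, at 1.16 and 1.06 times after si-WDR5-2 and at 1.02 and 1.01 times after si-WDR5-3. The third was dim, at 102 in the control, and lay below it at 0.948 and 0.977 times. The gene value was 1.11 times the control after si-WDR5-2 and 1.01 times after si-WDR5-3.

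OGT, the enzyme that adds O-GlcNAc to serine and threonine of nuclear and cytoplasmic proteins and that cleaves HCFC1, varied most among its own probe sets. The brightest had 504 in control cells, 567 after si-WDR5-2 and 579 after si-WDR5-3. The second had 436, 580 and 420, and the third had 329, 391 and 371. In the first and the third both WDR5 siRNAs were above the control, whereas in the second the array of si-WDR5-3 was below it, and that of si-WDR5-2 stood at 1.33 times. A dimmer one had 189 in control cells, 179.8 after si-WDR5-2 and 189 after si-WDR5-3, and the dimmest, which did not pass the filter, had 66.7 in the control. The ratios of the 4 probe sets past the filter ran from 0.950 to 1.33 after si-WDR5-2 and from 0.963 to 1.15 after si-WDR5-3. Their SD was 0.20 and 0.13 on the log2 scale, next to gene values of 0.21 (1.16 times) and 0.09 (1.06 times). The second probe set also showed the widest gap between the WDR5 siRNAs of all 17, since its si-WDR5-2 value was 1.38 times that of si-WDR5-3.

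HCFC1, or host cell factor 1, which joins chromatin enzymes to DNA-binding factors, had 4 probe sets. The brightest had an intensity of 1644 in control cells, 1630 after si-WDR5-2 and 1703 after si-WDR5-3. The second had 272, 248 and 265, the third 205, 195 and 197, and the dim last one 85.2, 83.9 and 83.6. All 4 were below the control after si-WDR5-2, at 0.911 to 0.992 times, and after si-WDR5-3 the 3 less bright ones were below it and the brightest was above it at 1.04 times. HCFC1 was at 0.948 times the control after si-WDR5-2 and at 0.973 times after si-WDR5-3, and was the only partner whose gene value was below the control with both.

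Over the 17 probe sets past the filter, 9 were above the control after si-WDR5-2 and 10 after si-WDR5-3. With both siRNAs 6 were above it and 4 below it. Within 1.1 times the control were 10 after si-WDR5-2 and 14 after si-WDR5-3. Probe sets of 1 gene are counted singly here, and the shares over all probe sets were not computed. As gene values, 6 of the 8 partners were above the control after si-WDR5-2 and 5 after si-WDR5-3. Of all 11501 genes, 5244 and 5717 were, and the difference was not tested. The 6 dim probe sets had ratios between 0.912 and 1.17. Set against each other, si-WDR5-2 and si-WDR5-3 differed by at least 1.5 times in 6.66% of genes and in none of the 8 partners. The largest gene-level gap was that of KANSL2 at 1.23 times, followed by KANSL3 at 1.17 times and MCRS1 at 1.15 times, and in each the si-WDR5-2 array was the higher. The smallest were those of KAT8 (0.995 times) and KANSL1 (0.990 times).

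A test across all probe sets was possible only with both WDR5 siRNA arrays taken as 1 knockdown group against the single control. This leaves 1 residual degree of freedom, which is the difference between si-WDR5-2 and si-WDR5-3. The variance also borrows from the other probe sets, so the SE and intervals below have 3.68 degrees of freedom. They do not measure the spread between cultures. In this limma fit 0% of 24647 probe sets passed an adjusted p of 0.05, WDR5 included. At an unadjusted p under 0.05 there were 1097 probe sets (4.45%), and none of the 17 partner probe sets was among them. MCRS1 had a log2 difference of 0.42 (SE 0.16), with a 95% interval from -0.05 to 0.88 and an adjusted p of 0.999 by limma. For the brightest probe set of HCFC1 the difference was 0.02 with an interval from -0.51 to 0.55, and for that of KANSL1 it was -0.00068 with an interval from -0.56 to 0.56. The intervals of these 3 probe sets hold differences close to 1.5 times or past it, so the fit does not show that the partners were unchanged.

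Genes around the complex were described by the same values, and the highest and the lowest gene of a list are those by the mean of both log2 ratios. WDR5 is also part of the WRAD module of the methyltransferase complexes, and its partners there, ASH2L, RBBP5 and DPY30, had a median log2 ratio of -0.04 after si-WDR5-2 and -0.02 after si-WDR5-3. ASH2L, which stimulates the methyltransferases, was the highest at 1.12 and 1.03 times and RBBP5, its binding partner, the lowest at 0.960 and 0.970 times. The ATAC acetyltransferase complex, another complex with WDR5, had medians of 0.17 and 0.00457 over 8 genes, close to the 0.18 and 0.01 of the NSL partners. By that mean TADA3, an adaptor of KAT2A, was its highest gene at 1.34 and 1.16 times and MBIP its lowest at 0.933 and 0.948 times. With each siRNA alone the extremes were 2 other genes, on opposite sides of the control. YEATS2, a reader of acetylated histones, was at 1.47 times after si-WDR5-2, the highest there, and at 0.888 times after si-WDR5-3, the lowest there. The acetyltransferase KAT2B was at 0.889 times after si-WDR5-2, the lowest, and at 1.39 times after si-WDR5-3, the highest. Each of these rests on 1 probe set past the filter, and the difference between the siRNAs was not tested. In the MSL complex, which holds KAT8 without WDR5, the scaffold MSL1 was at 1.38 times the control after si-WDR5-2 and at 1.35 times after si-WDR5-3, and MSL3 was at 0.942 and 0.857 times. The 3 probe sets of MSL1 past the filter ran from 1.21 to 1.64 times after si-WDR5-2 and from 1.27 to 1.63 times after si-WDR5-3. After si-WDR5-2, RBBP5 was above the control when dim probe sets were included (log2 ratio 0.03), as was MSL3 by its brightest probe set (0.09). As medians over their probe sets, none of the genes of these 3 lists was past 1.5 times with either siRNA, and no test sets the lists apart.

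**Figure D3:**
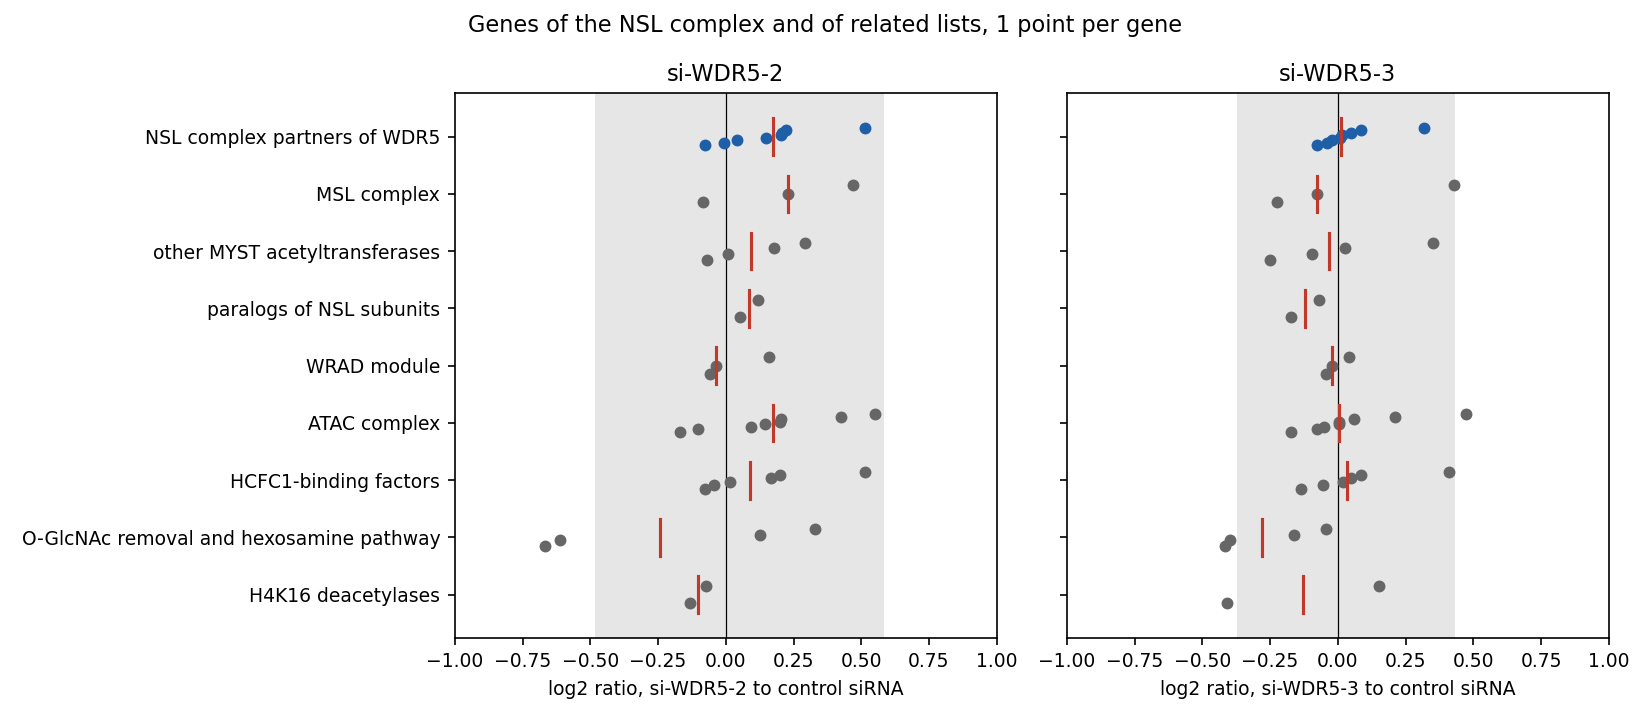
Log2 ratio to control siRNA after si-WDR5-2 (left) and si-WDR5-3 (right), 1 point per gene past the filter, for the NSL partners (blue) and for related gene lists (grey). Red bars are list medians, the NSL ones at 0.18 and 0.01, and the grey band runs from the 5th to the 95th percentile of all genes, 0.716 to 1.5 and 0.773 to 1.35 times the control, in which all 8 partners lie.

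Relatives of single partners are given next, with the ratio after si-WDR5-2 first. Of the paralogs, KANSL1L was at 1.08 and 0.953 times the control and PHF20L1, which can take the place of PHF20, at 1.04 and 0.888 times, and HCFC2 was below the filter. Among other acetyltransferases of the MYST family of KAT8, KAT6B was the highest by the mean at 1.13 and 1.28 times and KAT6A the lowest at 0.953 and 0.840 times, while after si-WDR5-2 alone KAT5 was above KAT6B at 1.23 times (1.02 times after si-WDR5-3). Of 6 factors past the filter that bind HCFC1, CREB3, a membrane-bound transcription factor, was the highest at 1.43 and 1.33 times and THAP3 the lowest by the mean at 0.970 and 0.963 times. With each siRNA alone another gene was lower, THAP11 after si-WDR5-2 at 0.949 times and THAP1 after si-WDR5-3 at 0.909 times.

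Other gene groups lay further from the control on the same arrays. Interferon-induced genes had a median log2 ratio of 2.40 over 18 genes after si-WDR5-2 and of -0.66 after si-WDR5-3, with CXCL10 at 7.95 and 0.918 times and IFI6 at 2.25 and 0.444 times the control. Proliferation genes had medians of -0.73 and -0.26 over 16 genes, with CCNE1 at 0.458 and 0.528 times, CCNE2 at 0.409 and 0.619 times, RRM2 at 0.551 and 0.518 times and MCM5 at 0.839 and 1.02 times. Their part in the values of the NSL partners was not tested. Of 12 urothelial and epithelial markers 7 passed the filter. KRT18 had intensities between 1408 and 2155 on the 3 arrays, whereas UPK2, KRT20, GATA3, CDH1 and EPCAM lay below the filter on average. KRT18 was at 0.713 times the control after si-WDR5-2 and at 1.09 times after si-WDR5-3. In the others that passed, the brightest probe set read 160 to 276, the level of CD3E and PECAM1 (158 to 287). The 7 had a median log2 ratio of -0.09 after si-WDR5-2 and -0.01 after si-WDR5-3. These medians rest mostly on probe sets at that level. KRT8, the highest of the 7 by the mean of both log2 ratios, was at 1.16 and 1.03 times the control. All 3 mesenchymal markers passed, and they did not go the same way. VIM, with intensities of 8061 to 10126, was at 0.786 and 0.914 times the control, and CDH2 was at 1.23 and 1.42 times. FN1, which encodes fibronectin, had a gene value of 2.05 and 1.59 times, past 1.5 times with both siRNAs. It rests on 2 of 8 probe sets, which were at 1.31 and 1.93 times after si-WDR5-3. The brighter read 169 in control cells, below CD3E at 176, and the CDH2 probe set past the filter read 224. The part of the mesenchymal markers in the values of the partners was not tested either. PTPRC, which marks leukocytes, was at 63.5 to 64.0.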

How the data were processed

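The authors deposited linear intensities, 1 per probe set and array, and GCOS 1.4 is named in the submitters' processing notes. How probes were corrected, summarised and scaled is not given in the sources used here. Median intensities were 151, 149.9 and 151 for control siRNA, si-WDR5-2 and si-WDR5-3, so no further scaling was applied. The number of arrays limits the precision.

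The deposited intensities were put on a log2 scale with no offset added, and the brighter 24647 probe sets by mean log2 value, from the median up, were kept. A gene is the median over its kept probe sets with 1 distinct symbol (45064 of 49293 probe sets have 1, 1756 several and 2473 none), and the range or SD given beside it is over probe sets and says nothing of cultures. Members and the other 14 lists were chosen with earlier results of these data known. Named genes are all partners, WDR5, the highest and lowest gene of each list by the mean of both log2 ratios and those past 1.5 times with both siRNAs in 1 direction, and the 3 nearest to the partner with the largest change of 1 sign. Other markers and list genes named, such as YEATS2, KAT2B, KAT5, THAP1, THAP11 and UAP1, are exceptions, chosen after their values were seen. Some genes of the lists were not analysed here. No coordinates are given, since no build is named in the files.

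The alternative test was limma 3.58.1 (lmFit, eBayes with trend, Benjamini-Hochberg) in R 4.3.3, on the log2 values. It treats the lone control as varying like the siRNA arrays. The gene summary and limma were tested on simulated data with 200 changed genes. There both WDR5 siRNA arrays were given the same change and a small independent noise. In the real arrays the WDR5 siRNAs differ from each other, so the simulation does not show how well limma works on them. Values were also recomputed after quantile normalization or median centring, with other filters (none, 25th or 75th percentile), with an offset of 84.8, from the brightest probe set, and with limits of 25% above the control and of 2 times.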

Additional observations from a re-analysis of the deposited data

Results flagged for a closer look

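The si-WDR5-2 array was above the control and the si-WDR5-3 array below it for KANSL2, with a log2 difference of 0.30 between the WDR5 siRNAs. The interferon-induced genes, which are not part of the complex, did the same in all 18 past the filter, with a difference of 3.06 between the medians. MX1, also among the 19 on the array, was below the filter. The list was chosen with earlier results of these data known, and the filter counts the si-WDR5-2 array as well. The share of all genes that did the same was not computed, so the 18 of 18 is a description only. Each siRNA has 1 array, so neither difference was tested.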

How the results depend on the processing

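The counts of partners at least 1.5 times or at most 0.667 times the control stayed at 0 with each siRNA. This held under median centring, quantile normalization, the filters, the offset and the brightest probe set. A count of 0 cannot rise at the limit of 2 times, so that limit was no check. At 25% above the control the count of higher partners after si-WDR5-2 was 1. The median log2 ratio of the partners after si-WDR5-2, 0.18, was 0.061 without a filter and 0.061 with the filter at the 25th percentile, which take in the dim probe sets. At the 75th percentile 6 of the 8 partners remained measured, and MCRS1 and KAT8 did not. Of 108 values of single partners under these alternatives, 99 moved by less than the SD that a gene typically has over its probe sets and 9 by more. Part of the 99 could not move, because the setting left the same probe sets in use, as with the single ones of MCRS1 and KANSL2. The 99 therefore overstates how steady the values were. Of the 108, 8 lay on the other side of the control. These 8 were of KANSL1 (1.00 times after si-WDR5-2 by median centring, 0.996 times after si-WDR5-3 by quantile normalization), KANSL3 (0.935 and 0.945 times after si-WDR5-2), KAT8 (0.986 and 0.983 times) and HCFC1 (1.04 times after si-WDR5-3, in 2 of them). With the offset, MCRS1 was at 1.31 and 1.18 times. Limma called no probe set past the filter, WDR5 included, so the lack of a call says nothing of the partners. No paired analysis was possible because each condition has 1 array.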

Other observations

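OGT has a counterpart in OGA, the enzyme that removes O-GlcNAc. All 5 probe sets of OGA were above the control after si-WDR5-2, at 1.15 to 1.46 times, and 3 were below it after si-WDR5-3, at 0.922 to 0.969 times. Its gene value was 1.26 times after si-WDR5-2 and 0.969 times after si-WDR5-3, against 1.16 and 1.06 times for OGT. The hexosamine pathway makes the UDP-GlcNAc that OGT uses. GNPNAT1, an acetyltransferase of that pathway, was at 0.630 and 0.758 times the control, and its 3 probe sets lay below the control with both siRNAs. GFPT1, the rate-limiting enzyme, was named after its values were seen. Its gene value was 0.654 times after si-WDR5-2 and 0.893 times after si-WDR5-3. All 5 of its probe sets were lower after si-WDR5-2, at 0.361 to 0.782 times, but they disagreed after si-WDR5-3, at 0.790 to 1.59 times. UAP1, which makes UDP-GlcNAc in the last step and was also named after its values were seen, went another way, at 1.09 times after si-WDR5-2 and 0.7497 times after si-WDR5-3, on 1 probe set.

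Deacetylases of H4K16, a lysine of histone H4 that KAT8 can acetylate, were SIRT1 and SIRT2. SIRT1 was at 0.912 times the control after si-WDR5-2 and at 0.754 times after si-WDR5-3, on 1 probe set past the filter, with intensities of 513 in control cells, 468 after si-WDR5-2 and 386 after si-WDR5-3. SIRT2 was at 0.950 and 1.11 times over 3 probe sets. Neither was past 1.5 times with either siRNA.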
